A study of Mus musculus with 11 samples.

Results

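Blood vessels of the cortex were followed through 35 genes that mark their cells: 24 of endothelium, the inner lining, and 11 of the mural cells around it, which are pericytes on capillaries and smooth muscle on arterioles. The genes were taken from a list of known vascular markers by symbol, and all 35 reached the required mean of 0.5 CPM (tags scaled to a common library total) over the libraries, out of 22377 genes in the table. The data are CAGE (cap analysis of gene expression) libraries, in which capped 5′ ends of transcripts are trapped, sequenced as tags and counted per gene.

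The mice were male C57BL/6N animals with a photothrombotic stroke: the dye rose bengal (35 mg/kg) was injected and the left parietal cortex lit at 565 nm for 30 min over a circle of 3.5 mm, which closes the vessels of the lit field by clotting. The study followed cortex after such a stroke, with or without levetiracetam (LEV), an anti-seizure drug given in drinking water at 5 mg/mL. There were 11 libraries of cortex RNA, 1 per group. 5 came from the infarcted side and 5 from the non-infarcted side, at 7 d with LEV, 7 d without it, 1 m with LEV, 1 m without it, and 2 m with LEV withdrawn for 2 weeks, and the last was from untreated naive mice. The series' design text instead starts the drug 1 month after the stroke, for 2 weeks, and names 1 week of withdrawal, so the schedule behind the 7 d LEV libraries is not settled, and the labels are followed here. That text gives ages of 8 to 10 and 65 to 85 weeks, does not tie them to libraries, and also describes electrode placement and seizure tests with pentylenetetrazol without saying which mice had them. The labels describe the RNA as extracted from whole cortex and do not say how many mice stand behind a library or whether both sides came from the same mice. No group had a second library, so p-values measure the spread among these libraries, not among mice.

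Brain endothelial cells are joined by tight junctions, lack fenestrae and carry transporters that select what enters the brain, and together these make the blood-brain barrier. Pericytes, held to the endothelium by PDGF-B signalling through Pdgfrb, help to keep that barrier closed, while smooth muscle cells contract to set arteriolar flow. After ischaemia, vessels at the border of an infarct can sprout under VEGF and angiopoietin signals, and pericytes can detach, multiply or die.

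Library totals ran from 12928291 to 21000367 tags, of which 92.3% to 97.3% lay in the listed genes. A count of 3 tags, taken as the floor of a level, was 0.143 to 0.232 CPM. No floor was applied to ratios. The labelled tissue was borne out by neuronal markers (Rbfox3, Snap25, Slc17a7 and Gad1), whose summed level was 3015 to 4124 CPM on the infarcted side, 3535 to 4826 CPM on the non-infarcted side and 3780 CPM in naive cortex. Slc17a7 alone was 1516 CPM in the infarcted and 1738 CPM in the non-infarcted 1 m LEV library, against 481 to 861 CPM in every other library. Rbfox3 and Gad1 at 1 m with LEV lay within the range of the other libraries. Comparisons that use the 1 m LEV libraries hold the Slc17a7 difference, and what it means for the vascular values was not tested. A panel of 6 choroid plexus markers, led by Ttr, summed to 206 CPM in the non-infarcted 1 m LEV library and 366 CPM in the naive library, against 15.2 to 34.2 CPM in the other 9. Every comparison that uses those 2 libraries holds this difference too. A panel of 3 red cell markers (Alas2, Hbb-bs and Hbb-bt) also differed between libraries. It summed to 23.0 CPM on the infarcted and 31.3 CPM on the non-infarcted side at 7 d with LEV, and to 17.8 and 15.7 CPM at 2 m. The other libraries after stroke had 74.3 to 106 CPM and naive cortex 158 CPM. Comparisons across these libraries hold the red cell difference, and its part in the vascular values was not tested. In this tissue RNA a lower level of a vascular gene cannot be told apart between fewer vascular cells and less RNA per cell.

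The 24 endothelial genes summed to 468 to 567 CPM on the infarcted side, 437 to 502 CPM on the non-infarcted side and 496 CPM in naive cortex. The mural genes summed to 178 to 307 CPM on the infarcted side, 162 to 271 CPM on the non-infarcted side and 194 CPM in naive cortex. In each of the 5 states both sums were higher on the infarcted side, although the ranges over states overlapped. On that side markers of other cells moved far more. The 7 myeloid markers summed to 212 to 1276 CPM on the infarcted side, 112 to 129 CPM on the non-infarcted side and 111 CPM in naive cortex. The 6 fibroblast markers summed to 77.3 to 1307 CPM on the infarcted side, 57.2 to 138 CPM on the non-infarcted side and 74.9 CPM in naive cortex. The infarcted 1 m LEV library had the lowest infarcted-side sum of all 4 panels. The part of these other cells in the vascular values was not tested.

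**Figure D1:**
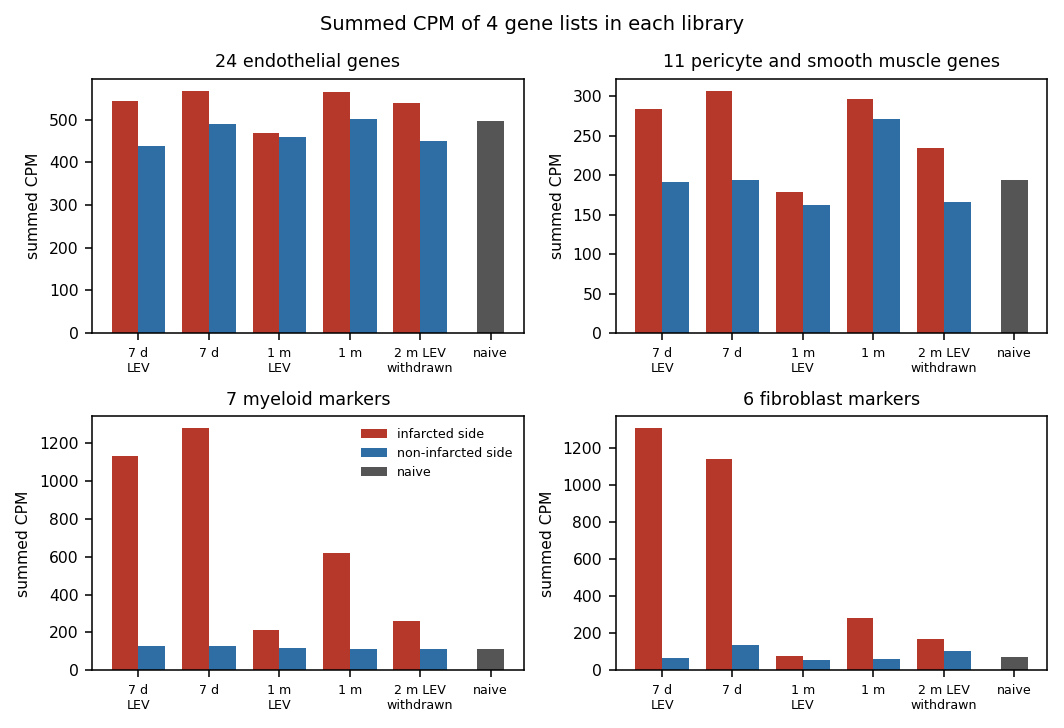
Summed CPM of marker panels in each of the 11 libraries, by state along the horizontal axis, with the infarcted side, the non-infarcted side and naive cortex in separate colours. The endothelial and mural sums differ less between sides than the myeloid and fibroblast sums, which peak in the infarcted 7 d libraries, at 1276 and 1307 CPM, and are lowest for that side at 1 m with LEV.

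Several mural genes rose on the infarcted side, among them markers of pericytes, while the pericyte genes Vtn, Higd1b and Abcc9 were not called. Over the 5 states 4 of 10 tested mural genes (40.0%) rose there, namely Anpep, Rgs5, Pdgfrb and Notch3, and 1 of 23 endothelial genes (4.35%) rose, the efflux pump Abcb1a. None of the 33 fell. Of 16 other mural genes, outside the members, 1 rose (6.25%) and 0 fell. Over all 16229 genes tested, 6.21% rose and 0.789% fell. The shares of endothelial genes and of other mural genes called thus lie near the background. At an unadjusted limma p below 0.05, however, were 12 of 23 endothelial genes and 6 of 10 mural genes, against 3777 of the 16229 genes. A gene is called here when limma's moderated test on log2(CPM + 1), with state as a factor, gives a Benjamini-Hochberg adjusted p below 0.05 over all genes, and on this scale the change of low genes is understated. The median log2 difference was 0.36 for mural genes and 0.27 for endothelial genes, against 0.01 for all genes, and 30 of 33 members were positive. Of the 35 members, 13 were higher on the infarcted side in 5 of 5 states, which 14.8% of all genes were. Beside the mural calls, 7 of 7 myeloid, 5 of 6 fibroblast, 3 of 4 astrocyte (median log2 0.64) and 2 of 3 oligodendrocyte markers (median 0.41) rose on the infarcted side and 0 of 4 neuronal markers did (median −0.22), and their part in the vascular values was not tested. An exact test that exchanges sides within the 5 states cannot give a two-sided p below 0.0625.

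Anpep, which encodes the surface peptidase CD13 of pericytes and also of some myeloid cells and fibroblasts, had the largest difference of the tested members. In the order 7 d LEV, 7 d, 1 m LEV, 1 m and 2 m, used for every such run of values below, the infarcted side had 8.05, 7.72, 1.67, 8.11 and 6.21 CPM of it, against 2.29, 1.78, 1.14, 1.74 and 1.09 CPM on the non-infarcted side and 1.62 CPM in naive cortex. 4 of the 5 infarcted libraries lay above every other library, and the 1 m LEV library lay among the non-infarcted ones. The ratio of infarcted to non-infarcted was 3.52 (95% exact interval 2.49 to 5.08, counting error only), 4.34 (2.92 to 6.60), 1.46 (0.832 to 2.59), 4.66 (2.98 to 7.57) and 5.69 (3.43 to 9.95). Its mean log2 difference was 1.39 (SE 0.21; limma adjusted p = 0.0108).

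Rgs5, a regulator of G protein signalling and a standard pericyte marker, was 103, 107, 45.6, 70.9 and 88 CPM on the infarcted side, against 68.05, 63.8, 40.3, 55.6 and 53.6 CPM on the non-infarcted side and 49.3 CPM in naive cortex. Every state was higher on the infarcted side, by ratios between 1.13 (1.03 to 1.24) at 1 m with LEV and 1.69 (1.56 to 1.82) at 7 d, but the sides overlapped over states. The log2 difference was 0.51 (SE 0.09; adjusted p = 0.0159). Pdgfrb, the receptor through which endothelial PDGF-B recruits pericytes, was 32.5, 32.97, 25.6, 39.4 and 28.5 CPM on the infarcted side, against 19.6, 20.5, 23.1, 28.1 and 25.4 CPM on the non-infarcted side and 24.5 CPM in naive cortex. It was higher on the infarcted side in every state, and the highest value was at 1 m without LEV. Its log2 difference was 0.43 (SE 0.10; adjusted p = 0.0357). Notch3, the Notch receptor of mural cells, was 10.3, 9.95, 10.5, 10.8 and 8.04 CPM on the infarcted side, against 7.07, 7.62, 8.90, 9.01 and 4.49 CPM on the non-infarcted side and 7.19 CPM in naive cortex. The sides overlapped, with the largest ratio at 2 m, 1.79 (1.34 to 2.40). The log2 difference was 0.40 (SE 0.10; adjusted p = 0.0449).

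The number of calls depended on which state was left out. Without the 1 m LEV pair 8 members were called, and without the 2 m pair 5 were. Over all genes the highest count with a state left out was 1288. Without the 7 d libraries, or without those of 1 m, none of the 35 members was called, and without those of 7 d with LEV only Anpep was, while over all genes the calls numbered 103, 71 and 161, against 1136 with all states. The log2 differences themselves stayed positive in every alternative setting, the lowest being 1.29 for Anpep, 0.45 for Rgs5, 0.36 for Pdgfrb, 0.32 for Notch3 and 0.55 for Abcb1a. When values were centred on each library's median gene, or scaled by TMM factors, Pdgfrb, Notch3 and Abcb1a were no longer called (adjusted p between 0.0506 and 0.0625), while Anpep and Rgs5 were.

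Among the other abundant mural genes, Vtn, the adhesive glycoprotein vitronectin that pericytes secrete, was 55.7, 57.02, 50.03, 75.8 and 45.8 CPM on the infarcted side, against 43.9, 46.4, 48.2, 60.4 and 21.97 CPM on the non-infarcted side and 55.4 CPM in naive cortex. Its difference was not called (log2 0.41, adjusted p = 0.0805), and the 2 m pair stood out with a ratio of 2.08 (1.84 to 2.36), the non-infarcted library being the lowest of all 11. Higd1b, a mitochondrial membrane protein used as a pericyte marker, was 17.7, 21.9, 14.7, 27.1 and 12.3 CPM on the infarcted side, against 14.5, 18.2, 14.3, 24.04 and 8.74 CPM on the non-infarcted side and 19.6 CPM in naive cortex, and was not called. Both genes were highest at 1 m without LEV on either side. Abcc9, the sulphonylurea receptor subunit of the pericyte potassium channel, ranged from 3.07 to 6.97 CPM on the infarcted side and from 3.05 to 5.50 CPM on the non-infarcted side, and was not called.

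**Figure D2:**
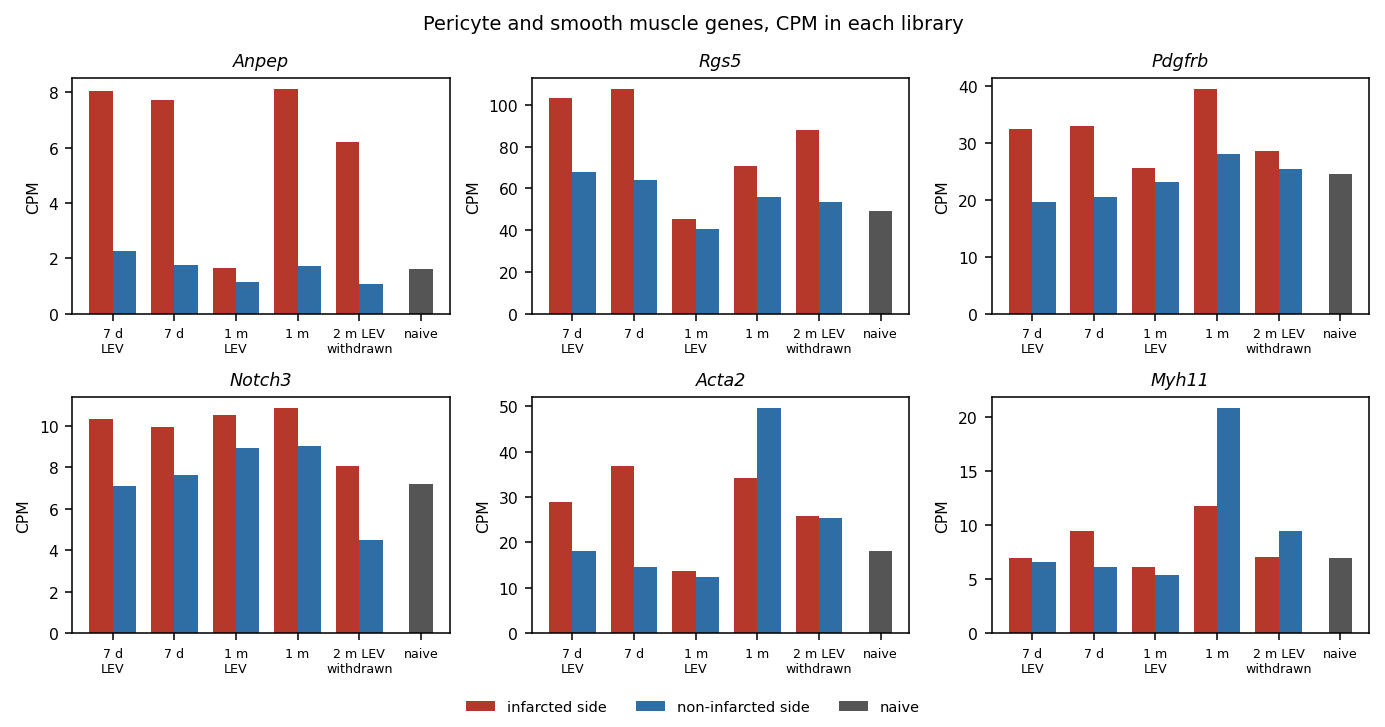
CPM of 6 mural genes in each of the 11 libraries, by state, with the infarcted side left of the non-infarcted side and naive cortex at the right. Anpep is 6.21 to 8.11 CPM in 4 infarcted libraries and 1.67 CPM at 1 m with LEV, while Acta2 and Myh11 are highest in the non-infarcted 1 m library.

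Smooth muscle contractile genes showed no common side difference. Acta2, smooth muscle actin, was 28.97, 36.8, 13.6, 34.2 and 25.8 CPM on the infarcted side, against 18.1, 14.6, 12.4, 49.5 and 25.4 CPM on the non-infarcted side and 18.1 CPM in naive cortex. Tagln, the actin-binding protein transgelin, was 13.97, 18.1, 6.46, 10.1 and 8.44 CPM on the infarcted side, against 6.17, 9.62, 4.38, 14.96 and 10.5 CPM on the non-infarcted side and 5.96 CPM in naive cortex. Both were higher on the infarcted side at 7 d with and without LEV, and both were lower there at 1 m without LEV, with ratios of 0.690 (0.613 to 0.777) for Acta2 and 0.677 (0.542 to 0.843) for Tagln. Myh11, the smooth muscle myosin heavy chain, followed the same course at 1 m, at 11.8 CPM on the infarcted side and 20.8 CPM on the non-infarcted side, a ratio of 0.567 (0.465 to 0.689). Cnn1, calponin, was near the floor, at 0.114 to 0.934 CPM on the infarcted side and 0.111 to 1.53 CPM on the non-infarcted side, and its highest value was again the non-infarcted 1 m library. None of the 4 was called, and Cnn1 lay below the mean of 1 CPM asked for by the test.

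Of the endothelial genes, Abcb1a, which encodes the drug efflux pump P-glycoprotein, was the single member whose infarcted libraries all lay above all non-infarcted ones, a pattern found in 3.23% of all genes. It was 3.01, 3.86, 1.35, 2.23 and 1.48 CPM on the infarcted side, against 1.12, 1.28, 1.24, 0.799 and 0.911 CPM on the non-infarcted side and 1.24 CPM in naive cortex. The values at 1 m with LEV and at 2 m, the lowest of the infarcted side, were within counting error of their non-infarcted partners, with ratios of 1.09 (0.610 to 1.96) and 1.63 (0.831 to 3.31). The log2 difference was 0.66 (SE 0.17; adjusted p = 0.0458). Abcg2, another efflux pump, ranged from 14.5 to 22.7 CPM on the infarcted side and from 13.6 to 16.3 CPM on the non-infarcted side (log2 0.38, adjusted p = 0.0609).

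Plvap, which forms the diaphragms of fenestrae and caveolae and is absent from mature barrier endothelium, was below the test's limit and had few tags. On the infarcted side it had 58, 32, 0, 21 and 16 tags, against 3, 5, 1, 1 and 1 on the non-infarcted side and 0 in naive cortex. As levels these were 3.36, 1.93, 0, 1.51 and 0.912 CPM on the infarcted side and 0.159, 0.278, 0.0476, 0.0726 and 0.0607 CPM on the non-infarcted side. 4 infarcted libraries lay above every other library, and the 1 m LEV library held no tag, which allows up to 0.156 CPM. The ratio was 21.1 (6.86 to 105) at 7 d with LEV and 6.94 (2.68 to 22.8) at 7 d. In the fit with no expression limit, read for this gene after its values were seen, its log2 difference was 1.02 (SE 0.23; adjusted p = 0.05001), just outside the threshold.

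None of the 6 junction genes was called for the side. Cldn5, the main claudin of brain tight junctions, was 47.2, 60.2, 55.9, 53.7 and 61.3 CPM on the infarcted side, against 28.3, 47.04, 48, 48.7 and 56.03 CPM on the non-infarcted side and 33.9 CPM in naive cortex. It was higher on the infarcted side in all 5 states (log2 0.31, adjusted p = 0.0759). Cdh5, the VE-cadherin of endothelial adherens junctions, was 16.9, 15.8, 5.47, 8.62 and 10.7 CPM on the infarcted side, against 7.92, 8.12, 5.62, 6.46 and 7.41 CPM on the non-infarcted side and 8.12 CPM in naive cortex. Both 7 d libraries of the infarcted side stood well above the rest, the log2 difference over states was 0.54 (adjusted p = 0.0600), and without the 1 m LEV pair it was called at 0.68 (adjusted p = 0.0180). Pecam1, an adhesion molecule of endothelial contacts, was 12.98, 12.8, 6.98, 9.77 and 14.4 CPM on the infarcted side, against 8.08, 12.3, 6.90, 7.77 and 7.71 CPM on the non-infarcted side and 8.28 CPM in naive cortex, and was not called. Tjp1, the scaffold ZO-1 found in many cell types, was 135, 132, 106, 121 and 106 CPM on the infarcted side, against 114, 109, 109, 131 and 103 CPM on the non-infarcted side and 117 CPM in naive cortex, with no shared direction. Ocln, the tight junction protein occludin, lay between 8.40 and 12.4 CPM on the infarcted side and between 9.01 and 10.5 CPM on the non-infarcted side. Esam, a further junctional adhesion molecule, lay between 15.6 and 23.4 CPM on the infarcted side and between 15.1 and 24.1 CPM on the non-infarcted side.

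The receptors of vessel growth came next. Flt1, the VEGF receptor that also occurs as a soluble trap, was 35, 39.7, 45.4, 74.2 and 36.7 CPM on the infarcted side, against 29.8, 33.3, 55.3, 66.9 and 40.8 CPM on the non-infarcted side and 59.9 CPM in naive cortex. The 1 m libraries lay above those of 7 d on either side, and the log2 side difference was 0.04 (adjusted p = 0.843). Kdr, the main signalling VEGF receptor, ranged from 6.497 to 9.48 CPM on the infarcted side and from 4.67 to 6.97 CPM on the non-infarcted side. It was higher on the infarcted side in all 5 states and missed the threshold (log2 0.42, adjusted p = 0.0531). Notch4, the endothelial Notch receptor, was 10.1, 11.3, 4.89, 9.05 and 5.19 CPM on the infarcted side, against 5.69, 5.50, 5.05, 6.32 and 6.80 CPM on the non-infarcted side and 11.4 CPM in naive cortex. It was higher on the infarcted side at 7 d, with a ratio of 2.06 (1.61 to 2.65), and not higher there at 1 m with LEV or at 2 m, and it was not called. Tek, the angiopoietin receptor, its partner Tie1, and Eng, a co-receptor for the TGF-beta family, were not called, with log2 differences of 0.08, −0.05 and 0.31.

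The remaining transporters and surface genes were not called for the side. Slc2a1, the glucose transporter GLUT1, was 56.4, 58.2, 72.5, 63.8 and 52.9 CPM on the infarcted side, against 58.96, 52.1, 65.1, 50.5 and 39.8 CPM on the non-infarcted side and 75.96 CPM in naive cortex. Slco1a4, an organic anion transporter, was 36.5, 32.97, 26.5, 36.5 and 47.99 CPM on the infarcted side, against 29.2, 34.5, 23.8, 30.9 and 32.8 CPM on the non-infarcted side and 25.9 CPM in naive cortex. Neither was called, and for both the sides overlapped. Slco1c1, which carries thyroid hormone, and Mfsd2a, a lipid transporter that restrains transcytosis, had log2 differences of 0.06 and −0.04. Ly6c1, a surface protein of brain endothelium and some leukocytes, was 28.3, 35.9, 21.1, 27.1 and 31.97 CPM on the infarcted side, against 26.05, 35.5, 16, 21.3 and 19.5 CPM on the non-infarcted side and 24.4 CPM in naive cortex. Ly6a, its relative Sca-1, was 15.9, 15.3, 8.85, 10.5 and 14.2 CPM on the infarcted side, against 9.99, 14.1, 9.05, 7.04 and 6.80 CPM on the non-infarcted side and 6.88 CPM in naive cortex. Neither was called, with log2 differences of 0.30 for Ly6c1 (adjusted p = 0.102) and 0.44 for Ly6a (adjusted p = 0.0992). At 2 m the ratio of infarcted to non-infarcted was 1.64 (1.42 to 1.88) for Ly6c1 and 2.10 (1.67 to 2.64) for Ly6a. Vwf, the clotting glycoprotein von Willebrand factor, Emcn, the sialomucin endomucin, and Nos3, the endothelial nitric oxide synthase, had log2 differences of 0.27, 0.35 and 0.07 and were not called.

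**Figure D3:**
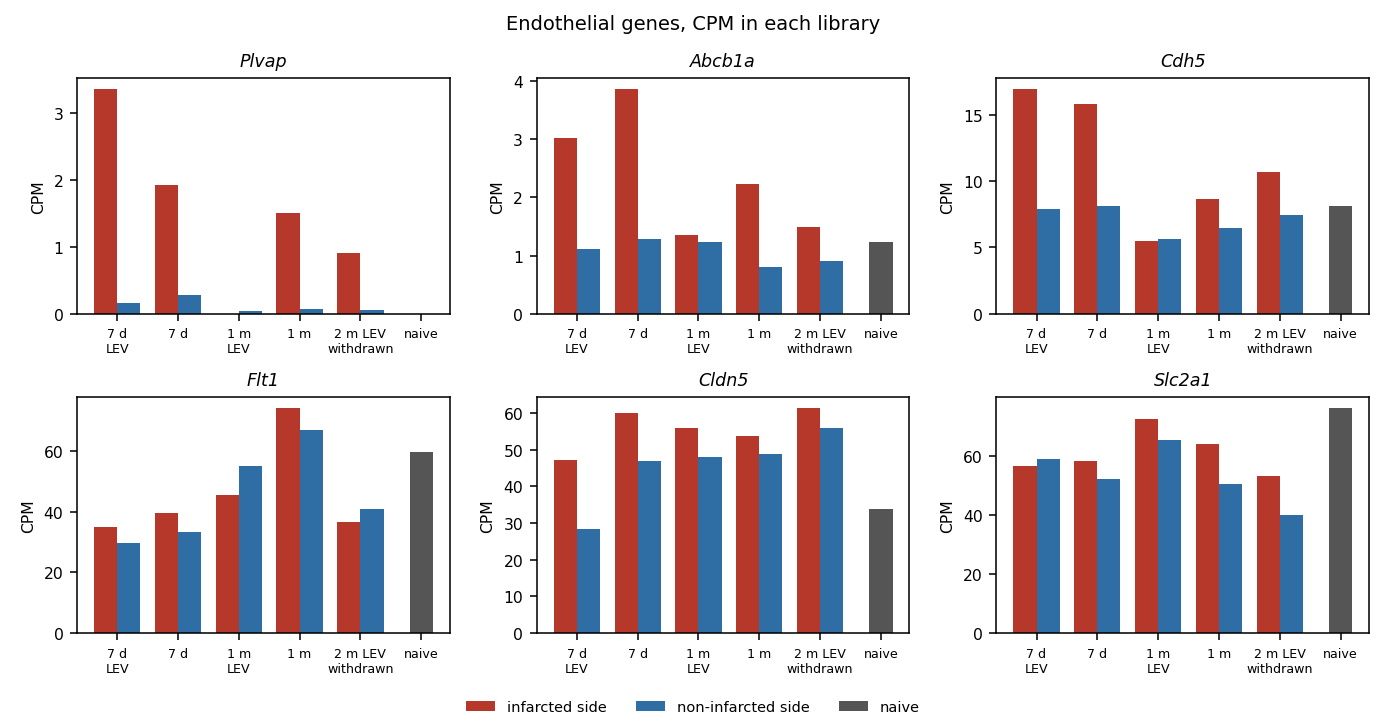
CPM of 6 endothelial genes in each of the 11 libraries, by state, with the infarcted side left of the non-infarcted side and naive cortex at the right. Cdh5 is highest in the 2 infarcted libraries of 7 d, at 15.8 and 16.9 CPM, and Plvap is above 0.9 CPM in 4 infarcted libraries only.

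The side difference was not even over the states. The members higher by at least 1.5-fold on the infarcted side, a count added after the data were seen, were 12 of 33 at 7 d with LEV (12.9% of all genes), 11 at 7 d (11.9%), 0 at 1 m with LEV (4.35%), 3 at 1 m (8.52%) and 9 at 2 m (11.5%). Those lower by as much were 0 at 7 d with LEV (2.00% of all genes), 0 at 7 d (3.33%), 1 at 1 m with LEV (1.04%), 1 at 1 m (3.25%) and 0 at 2 m (2.07%). The median log2 side difference of the members was 0.39, 0.27, 0.05, 0.24 and 0.38 in the same order, against 0.02, −0.05, 0.00, 0.05 and 0.06 for all genes. The 1 m LEV pair thus held the smallest vascular side difference, and its myeloid and fibroblast sums were also the lowest of the infarcted side.

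**Figure D4:**
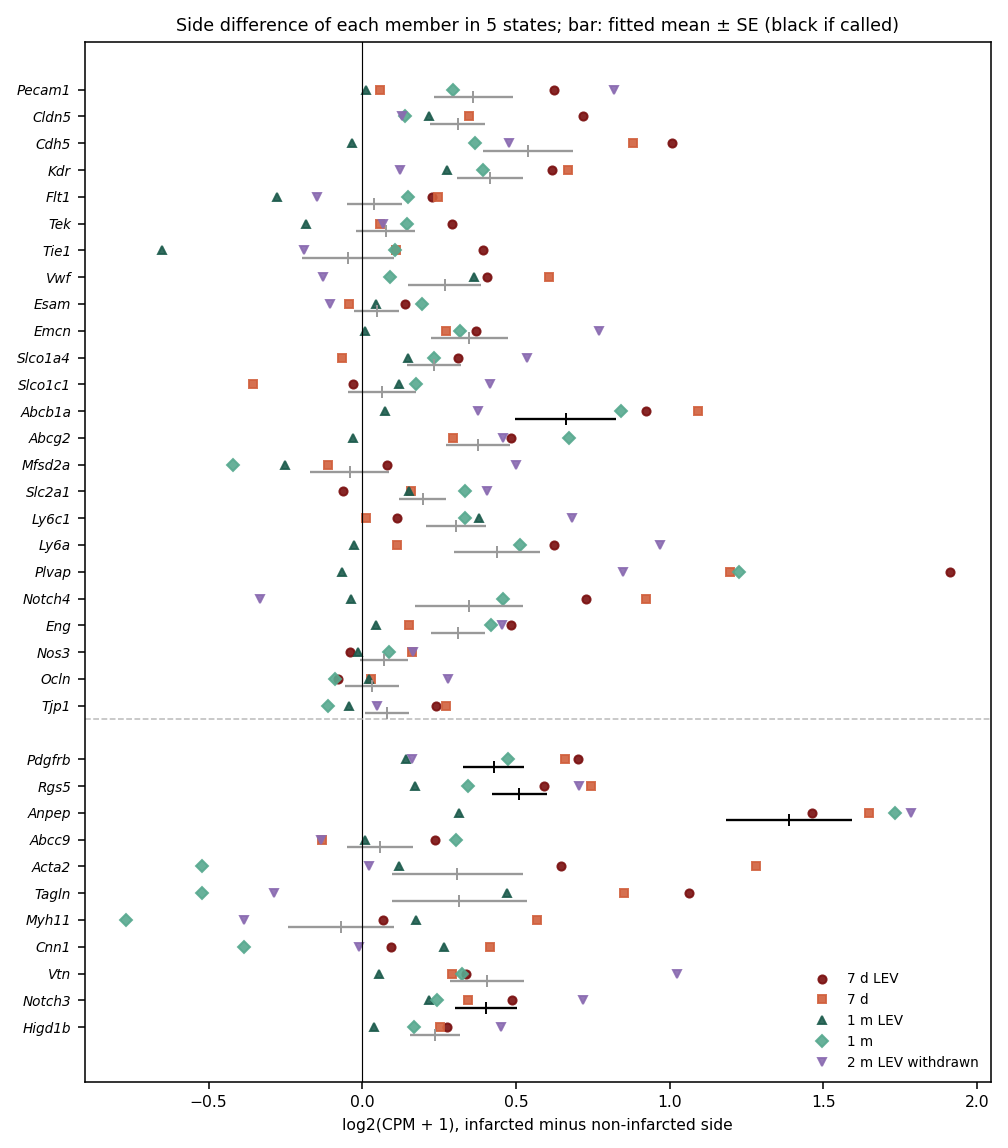
Log2 difference, infarcted minus non-infarcted side, of each member in the 5 states (points) with the mean over states from the fit (bars, absent for Plvap and Cnn1, which were below its expression limit). Anpep has the highest fitted mean at 1.39, and most members have positive means.

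CAGE tags mark transcript starts, but the table counts them per gene with no position, so the windows given here lie before annotated starts that are not shown to be used in these libraries. RefSeq promoters (GRCm38.p6) were matched for 24 of the 35 members, and the 250 bases before the start are shown for 6 of those matched, the members with the largest side difference among those called in any comparison, read 5′ to 3′ on the gene's strand with CG dinucleotides in capitals. Anpep, Abcb1a, Rgs5 and Notch3 were called for the side, whereas Notch4 and Acta2 were called only in the comparisons of time or LEV given further on. The RefSeq start lies within 38 bases of a GENCODE M21 transcript start for 4 of the 6, 217 bases from one for Acta2, and 92986 bases upstream of the nearest one for Abcb1a.
Anpep (chr7:79848211-79848460, minus strand): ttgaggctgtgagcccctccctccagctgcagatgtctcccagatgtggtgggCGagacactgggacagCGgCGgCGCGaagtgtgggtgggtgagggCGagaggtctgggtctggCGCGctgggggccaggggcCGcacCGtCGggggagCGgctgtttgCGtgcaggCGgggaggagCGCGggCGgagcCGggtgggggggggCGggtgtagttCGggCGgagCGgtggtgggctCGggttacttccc
Abcb1a (chr5:8566841-8567090, plus strand): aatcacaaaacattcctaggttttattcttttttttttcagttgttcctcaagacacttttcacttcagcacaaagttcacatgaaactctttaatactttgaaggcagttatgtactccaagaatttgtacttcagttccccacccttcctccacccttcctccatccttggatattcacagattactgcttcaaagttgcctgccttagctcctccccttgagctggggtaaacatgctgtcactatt
Rgs5 (chr1:169655251-169655500, plus strand): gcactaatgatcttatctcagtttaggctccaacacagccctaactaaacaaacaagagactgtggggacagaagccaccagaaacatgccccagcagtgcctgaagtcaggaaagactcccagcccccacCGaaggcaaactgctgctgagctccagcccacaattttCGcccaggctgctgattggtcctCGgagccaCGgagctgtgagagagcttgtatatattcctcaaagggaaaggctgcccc
Notch3 (chr17:32166891-32167140, minus strand): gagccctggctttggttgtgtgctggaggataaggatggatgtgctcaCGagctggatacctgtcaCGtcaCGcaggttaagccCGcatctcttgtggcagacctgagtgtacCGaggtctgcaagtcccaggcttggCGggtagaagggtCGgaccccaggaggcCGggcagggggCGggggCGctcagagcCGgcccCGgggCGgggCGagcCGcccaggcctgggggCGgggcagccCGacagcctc
Notch4 (chr17:34564045-34564294, plus strand): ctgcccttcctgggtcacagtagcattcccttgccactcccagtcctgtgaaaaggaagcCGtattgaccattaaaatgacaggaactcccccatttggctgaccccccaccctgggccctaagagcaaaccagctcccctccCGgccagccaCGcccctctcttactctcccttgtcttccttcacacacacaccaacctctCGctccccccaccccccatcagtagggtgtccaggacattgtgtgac
Acta2 (chr19:34255374-34255623, minus strand): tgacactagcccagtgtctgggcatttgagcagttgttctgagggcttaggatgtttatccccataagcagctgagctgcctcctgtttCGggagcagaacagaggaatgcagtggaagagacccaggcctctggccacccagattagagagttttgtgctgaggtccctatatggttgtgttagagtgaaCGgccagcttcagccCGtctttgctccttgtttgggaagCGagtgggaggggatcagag
The Anpep window holds 23 CG dinucleotides and the Notch3 window 17, whereas Rgs5, Notch4 and Acta2 hold 4 each and Abcb1a holds 0. The median over 32851 promoters was 6, with quartiles of 2 and 16. The CArG box, the recognition motif of serum response factor at smooth muscle genes, was searched as CC, 6 bases of A or T, then GG, which reads alike on both strands. The full consensus was in none of the matched members' windows and in 1.47% of all promoters. With 1 base off allowed, a search added after the windows were seen, it was in 5 of the 24 matched members and in 18.6% of all promoters, and Acta2 held 2 such matches, which begin 84 and 34 bases before the RefSeq start. CTTTGA, a letter string searched for TCF/LEF factors on both strands, occurred in Abcb1a at 153 and 58 bases before the start, in Rgs5 at 20 and in Mfsd2a at 115, and in 13.8% of all promoters. TATAAA, searched likewise, occurred in Flt1 at 31 bases before the start, in Ly6c1 and in Vtn, and in 12.4% of all promoters. These are matches of letters only.

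Between 1 m and 7 d, several vascular genes fell on the infarcted side. In the fit of time and LEV over the 4 libraries of that side, 10 of 34 tested members fell (29.4%) and 1 rose (2.94%), while 11.4% of all 16399 genes fell and 5.27% rose. The genes that fell were 6 of 24 endothelial ones (Cdh5, Plvap, Abcb1a, Ly6a, Notch4 and Pecam1) and 4 of 10 mural ones (Rgs5, Tagln, Anpep and Acta2), and Flt1 rose. The median log2 difference of the members was −0.21, against −0.04 for all genes. The 2 pairs were unequal. Between the LEV libraries the median of the 35 members was −0.48, with 27 lower at 1 m (59.2% of all genes). Between those without LEV it was −0.01, with 18 lower (49.0% of all genes). In the same order the medians were −0.49 and −0.16 for endothelial genes and −0.33 and 0.25 for mural genes. Over the same interval 6 of 7 myeloid and 6 of 6 fibroblast markers fell on that side, and their part in the vascular values was not tested. Plvap reached the test's mean of 1 CPM on that side only through the 7 d libraries, which favoured a fall. Its call, lost in 3 of 10 alternative settings, is given as a description, and the counts above include it. This fit has 1 residual degree of freedom and borrows its spread from other genes, so a small p does not show that both pairs of libraries agree.

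Cdh5 fell by 1.14 on the log2 scale (SE 0.20; limma adjusted p = 1.77e-05), with a difference of −1.47 between the LEV libraries and −0.80 between those without it. Rgs5 fell by 0.88 (SE 0.14; adjusted p = 8.30e-06), with −1.16 and −0.59 in the 2 pairs. These 2 calls were kept in all 11 alternative settings, and no other infarcted-side call of a member was. Tagln fell by 0.89 (adjusted p = 0.00040). Ly6a fell by 0.64 (adjusted p = 0.0112), Abcb1a by 0.68 (adjusted p = 0.0295), Pecam1 by 0.59 (adjusted p = 0.0292) and Notch4 by 0.60 (adjusted p = 0.0317). Each of these 5 was lower at 1 m in both pairs. Anpep fell by 0.85 (adjusted p = 0.0119) and Acta2 by 0.57 (adjusted p = 0.0164), but almost wholly through the 1 m LEV library. The pair without LEV differed by 0.06 for Anpep and −0.10 for Acta2, and without that library, and with no LEV term, the 2 differences were 0.04 and 0.06. Plvap likewise had 0 tags at 1 m with LEV and 21 at 1 m without it, against 58 and 32 at 7 d, with differences of −2.12 between the LEV libraries and −0.22 between those without it. Flt1 rose by 0.63 (SE 0.15; adjusted p = 0.00197), by 0.37 between the LEV libraries and 0.89 between those without it. The call was lost in 4 of 11 alternative settings, over which the difference ran from 0.28 to 0.97, the lowest without the 1 m library of 74.2 CPM.

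On the non-infarcted side 1 of 33 members rose and 1 fell (3.03% each), against 5.98% and 6.45% of all 15931 genes. Flt1 rose by 0.93 (SE 0.14; limma adjusted p = 0.000903), by 0.87 and 0.98 in the 2 pairs, and was called in all 11 alternative settings. Its level in naive cortex, 59.9 CPM, lay between the 1 m values of this side. Ly6c1 fell by 0.69 (SE 0.15; adjusted p = 0.00749), by 0.67 and 0.71 in the pairs. On the infarcted side its difference was −0.40 and was not called.

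The change of the side difference itself between 1 m and 7 d was called for 3 of 33 members, all of them falling (9.09%), against 5.23% of all 16228 genes that fell and 0.240% that rose. Acta2 fell by 1.17 (limma adjusted p = 9.84e-06), Tagln by 0.98 (adjusted p = 0.00237) and Cdh5 by 0.78 (adjusted p = 0.0281). For Acta2 and Tagln the infarcted side was lower at 1 m than at 7 d while the non-infarcted library of 1 m without LEV was the highest of its side. After median centring or with TMM factors none of the 3 was called (adjusted p between 0.0684 and 0.134), though the differences were nearly as large.

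With LEV, 1 of 34 tested members fell on the infarcted side (2.94%) and none rose, against 0.390% of all genes that fell and 0.128% that rose. Acta2 fell by 0.80 (SE 0.17; limma adjusted p = 0.0125), but the call was lost in 10 of 11 alternative settings, edgeR included. The 2 pairs were unequal, at −0.34 for 7 d and −1.27 for 1 m. On the non-infarcted side limma called 0 of 33 members, with 9 at an unadjusted p below 0.05, and edgeR called 0, while 0.00628% of all genes were called. For the LEV effect on the side difference limma again called 0 of 33, with 2 at an unadjusted p below 0.05, and edgeR 0, while 0.0986% of all genes were called higher and 0.0739% lower, 0.173% in all.

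The mural genes did share a direction at 1 m. All 11 were lower with LEV than without it at that time on the infarcted side, where 54.2% of all genes were lower, and all 11 on the non-infarcted side, where 47.1% were. The median log2 difference was −0.63 on the infarcted side and −0.67 on the non-infarcted side. At 7 d 7 of 11 were lower with LEV on the infarcted side, where 35.6% of all genes were lower. On the non-infarcted side 6 of 11 were, where 52.0% of all genes were. Each of these comparisons sets 1 library against 1 and has no replicate check. On the infarcted side Anpep was the furthest apart, at −1.77, with Acta2 next at −1.27. Acta2 differed by −1.91 and Myh11 by −1.78 on the non-infarcted side. In the non-infarcted 1 m library without LEV, 49.5 CPM of Acta2, 20.8 CPM of Myh11 and 15.0 CPM of Tagln were each the highest of the 6 libraries outside the infarct. Its LEV partner was in turn the lowest of its side for Acta2 at 12.4 CPM, Myh11 at 5.33 CPM, Tagln at 4.38 CPM, Rgs5 at 40.3 CPM and Abcc9 at 3.05 CPM. The endothelial genes leaned the same way, with 19 of 24 lower with LEV at 1 m on the infarcted side (median log2 −0.45) and 17 of 24 on the non-infarcted side (median −0.18). Their 7 d counts were 13 of 24 on the infarcted side (median −0.02) and 18 of 24 on the non-infarcted side (median −0.16). Between the infarcted libraries of 1 m the myeloid sum was 212 CPM with LEV and 618 CPM without it, the fibroblast sum was 77.3 CPM with LEV and 283 CPM without it, and their part in the vascular values was not tested.

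**Figure D5:**
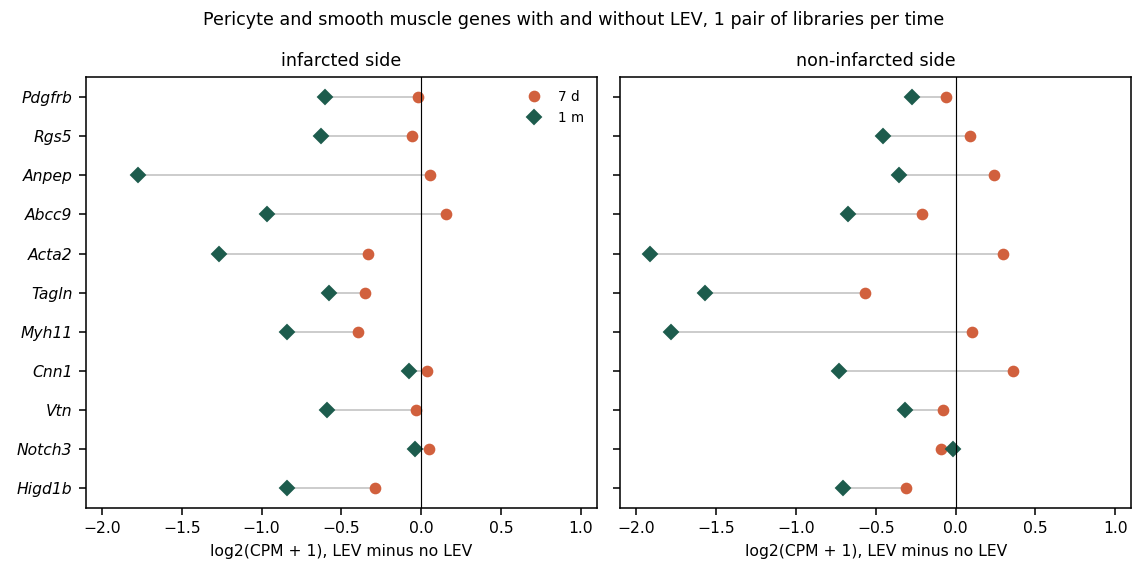
Log2 difference, LEV minus no LEV, of the 11 mural genes at 7 d and 1 m on each side, each from 1 library against 1. At 1 m all points lie below 0 on both sides, and at 7 d they lie on both sides of 0.

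At 2 m after withdrawal, set against 1 m with LEV, 12 of 33 members were higher by at least 1.5-fold on the infarcted side and 0 lower, where 15.1% of all genes were higher and 6.48% lower. On the non-infarcted side 6 were higher and 5 lower, where 12.9% and 10.9% of all genes were. Anpep was 3.73 times higher at 2 m on the infarcted side (95% interval 2.49 to 5.72), Cdh5 1.96 times (1.54 to 2.51) and Rgs5 1.93 times (1.78 to 2.10). Plvap had 16 tags at 2 m against 0 at 1 m with LEV. Vtn was lower at 2 m on the non-infarcted side, by a ratio of 0.456 (0.403 to 0.515), and so was Notch3, at 0.504 (0.380 to 0.664). Time and withdrawal change together in this pair and cannot be told apart.

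Against the naive library no member was called on either side. On the infarcted side limma called 0 of 34 members, with 3 at an unadjusted p below 0.05, and edgeR 0, while 0.00611% of all genes were called. On the non-infarcted side limma called 0 of 33, with 1 at an unadjusted p below 0.05, and edgeR 0, with 0 of all 15983 genes called. The median log2 difference from naive was 0.30 on the infarcted side and −0.06 on the non-infarcted side. The largest on the infarcted side was Anpep, at 1.36, and the lowest on the non-infarcted side was Notch4, at −0.85. The naive library is also the one with the highest choroid plexus and red cell sums, and their part in these values was not tested.

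Other vascular genes were mostly uncalled between the sides as well. Of 12 angiogenic ligands, Angpt1 and Angpt2, the ligands of Tek, rose on the infarcted side by 0.45 and 0.67 (limma adjusted p = 0.0247 and 0.0309). Among 15 other endothelial receptors and regulators only Nrp1, a VEGF and semaphorin co-receptor, rose (0.74, adjusted p = 0.0164), and among 12 other barrier genes only Itm2a (0.52, adjusted p = 0.0224). Icam1, a leukocyte adhesion molecule also made by myeloid cells, was the 1 of 6 endothelial activation genes that rose (1.07, adjusted p = 0.0165), and Ednra, the endothelin receptor of smooth muscle, the 1 of 16 other mural genes (0.60, adjusted p = 0.0375). Over all genes 6.21% rose, and none of these 5 lists held a gene that fell.

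At 1 m against 7 d on the infarcted side, 4 of 12 ligands fell, among them Adm, the vasodilator adrenomedullin, by 1.02 (limma adjusted p = 0.000758) and Angpt2 by 0.98 (adjusted p = 0.000880). Of 16 regulators 3 fell, among them Klf2, a transcription factor induced by flow, by 0.91 (adjusted p = 0.000295) and Nrp1 by 0.73 (adjusted p = 0.000857). The other, Aplnr, the apelin receptor of sprouting endothelium, passed the expression limit only through the 7 d libraries, with 0.156 and 0.646 CPM at 1 m against 2.90 and 4.82 CPM at 7 d. Of 6 activation genes 3 fell, namely Icam2, Icam1 and Cd34, and of 16 other mural genes 4 fell, led by Cald1, caldesmon, by 1.06 (adjusted p = 1.99e-06). Of 12 barrier genes 3 fell and 1 rose, the monocarboxylate transporter Slc16a1 at 0.52 (adjusted p = 0.0432). These shares stand beside the 11.4% of all genes that fell. With LEV on the infarcted side none of these 5 lists held a gene called by limma, with 0, 3, 6, 2 and 8 genes at an unadjusted p below 0.05 for the ligands, regulators, barrier, activation and other mural genes.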

How the data were processed

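Per the labels' protocols, capped RNA of mouse cortex was trapped and made into CAGE libraries. The authors deposited 1 table of CPM values (tags scaled to a common library total) for 22377 genes in 11 libraries, 1 per group. Tools listed in the submitters' processing notes, with no role for each, are HISAT2 2.0.5, BWA 0.7.17 and DESeq2 1.20.0, and the listed build is GRCm38. All CPM values were whole numbers of tags within 0.01 tag, so the tags were recovered; totals are in the report, and intervals and floors cover counting error only. The identifiers of 22335 genes matched GENCODE M21.

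Genes with a mean of at least 1 CPM in the libraries compared were tested on log2(CPM + 1) with limma 3.58.1 in R 4.3.3 (moderated test with trend, Benjamini-Hochberg adjustment over all genes, threshold 0.05). The side contrast used all 5 states and a term for state, each side was set against naive, and time and LEV were fitted jointly over 4 libraries a side and on the side difference. The test was checked on simulated data. edgeR 4.0.16 on the recovered tags, other pseudocounts, filters and scalings, and leaving out libraries were the alternatives. The counts past 1.5-fold and the reading of Plvap and Cnn1 without an expression limit were added after the data were seen. The members and gene lists were chosen with earlier results of these data known. Values in every library are given for called members and the 5 highest of each class, and each other list names at most 4 called genes. Foxq1 and Sele of those lists were not analysed here.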

Additional observations from a re-analysis of the deposited data

Results flagged for a closer look

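Single libraries stood apart from the other 4 of their side in 7 of 105 groups examined, and chance alone gives about 1 in 20. At 1 m with LEV the infarcted library was low for Tek at 4.58 CPM (the others 8.62 to 10.0 CPM) and for Eng at 15.0 CPM (21.8 to 23.1 CPM). The Anpep side difference of that pair was low at a log2 of 0.32 (1.46 to 1.79 in the other states). In the non-infarcted 1 m LEV library Mfsd2a was high at 16.0 CPM (8.56 to 9.47 CPM). At 1 m without LEV, Flt1 was high on the infarcted side at 74.2 CPM (35.0 to 45.4 CPM) and Myh11 high on the non-infarcted side at 20.8 CPM (5.33 to 9.47 CPM). At 7 d Pecam1 was high on the non-infarcted side at 12.3 CPM (6.90 to 8.08 CPM).

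The difference of 1 m against 7 d was unequal on the 2 sides for 3 members by the test of the difference itself. The log2 value, infarcted minus non-infarcted, was −0.78 for Cdh5, −1.17 for Acta2 and −0.98 for Tagln. The Acta2 and Tagln values hold the high non-infarcted library of 1 m without LEV. With that library and its infarcted partner left out, and no LEV term, Tagln was at −0.49 and Acta2 at −0.84.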

How the results depend on the processing

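Of the member tests under other settings, 3143 kept their verdict, called or not, 104 lost a call and 39 gained one. A further 3 were called in either setting and had opposite signs. Tests called in neither setting count as kept even if their sign changed, so the 3143 do not measure how stable the calls were. The side call was kept in 9 of 11 settings for Anpep, 8 of 12 for Rgs5, 5 of 12 for Pdgfrb, 4 of 11 for Abcb1a and 2 of 12 for Notch3. For the side, where 5 members were called, 2 were called with no expression limit, 2 with a mean of at least 5 CPM, 2 with median centring, 2 with TMM factors and 1 with no replicate block (no state factor); leaving out a state gave 0 to 8. For 1 m against 7 d on the infarcted side, with 11 called, the counts were 7 with no limit, 6 centred, 6 with TMM and 4 without the LEV term, and 3 to 21 when a library was left out. On the non-infarcted side, with 2 called, they were 2 to 7 with a library left out. For the time effect on the side difference, with 3 called, they were 0 centred, 0 with TMM, 1 without the LEV term and 0 to 4 with a library left out. For LEV on the infarcted side, with 1 called, they were 3 with a mean of at least 5 CPM, 0 with a library left out, and 0 with a pseudocount of 0.25, no limit, centring, TMM, edgeR or no time term. For LEV on the non-infarcted side they were 0 to 3 with a library left out. With a library left out, and no LEV term, the infarcted time difference (log2) of Anpep ranged from −1.74 to 0.037 and that of Acta2 from −1.21 to 0.063, both turning positive without 1 m LEV. That of Tagln on the non-infarcted side ranged from −0.70 without 1 m to 0.87 without 1 m LEV. The cause was not tested.

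Over all genes the side calls numbered 1136, 732 with a mean of at least 5 CPM, 245 with no replicate block, and 71 to 1288 with a state left out. Of them 88.7% were higher, 69.1% when centred and 74.8% with TMM. The time calls numbered 2732 on the infarcted side (31.6% higher, 46.5% when centred), 1547 without the LEV term and 704 to 4962 with a library left out. On the non-infarcted side they numbered 1979 (48.1% higher, 61.1% when centred, 71.5% with TMM), 1300 with TMM and 702 to 2907 with a library left out. No paired analysis was possible beyond the state factor because the labels give no replicate numbers.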
